A study of Mus musculus with 32 samples.

Results

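Microglia of rTg4510 mice were compared with microglia of wild-type (WT) mice at 2 months of age, the youngest of the 4 ages sampled. The comparison comprised the 4 rTg4510 and the 4 WT libraries that the labels give as 2 months old, 8 of the 32 libraries in the series, and it covered the 18588 genes of the deposited table. In rTg4510 mice, a human tau transgene with the P301L mutation is expressed from a tetracycline-responsive element in the presence of a tetracycline-controlled transactivator (tTA) that the CaMKIIα promoter drives in forebrain neurons. The mice were female and carried both transgenes, and the controls were littermates carrying neither. Mice with the tTA transgene alone were not part of the comparison, so effects of tau, of tTA and of the insertion sites cannot be told apart. For each library, cells bearing CD11b were purified on magnetic microbeads from the forebrains of pooled animals, and the labels number the 4 libraries of a genotype from 1 to 4.

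Microglia are the resident macrophages of the brain. In a healthy brain they express a set of surface receptors and secreted factors that is called homeostatic, and near protein deposits or dying neurons they lower this set and raise genes for lipid uptake, lysosomal degradation and chemokines, a state known as disease-associated. Survival of microglia depends on the receptor CSF1R and its ligands CSF1 and IL-34. The comparison at the youngest age asked which of these programs already differed between the genotypes when little tau pathology had formed.

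Values are log2 gene signals, which the study's authors had brought to a common median. A gene was called a differentially expressed gene (DEG) when its false discovery rate (FDR, the Benjamini-Hochberg adjusted p from a limma fit across all genes) was under 0.05 and it changed by more than 1.5 fold. There were 368 DEGs at 2 months (1.98% of the genes tested), of which 293 were up-regulated (1.58%) and 75 were down-regulated (0.403%) in rTg4510 microglia. With the FDR alone 1121 genes passed (6.03%), 885 of them higher (4.76%) and 236 lower (1.27%). The 4 rTg4510 and the 4 WT libraries did not overlap in 347 of the 368 DEGs, and among all genes 7.49% were higher and 3.51% lower in rTg4510 without overlap. Up-regulated genes made up 79.6% of the DEGs and, after quantile normalization, 68.3%. Leaving out WT replicate 2 reduced the down-regulated genes to 48.

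Libraries of the same genotype correlated with r between 0.944 and 0.963 (12 pairs, median 0.96) and libraries of different genotypes with r between 0.946 and 0.963 (16 pairs, median 0.955). The files give no read totals. The 10 strongest genes took 39.0% to 41.8% of the linear signal in WT and 35.5% to 40.1% in rTg4510 libraries. All 10 microglia markers were present at high signal (median WT level 10.81), and none was a DEG, but 3 were lower at an FDR under 0.05, namely Cx3cr1 (-0.35, FDR = 0.0367), Tmem119 (-0.35, FDR = 0.0465) and Itgam, which encodes CD11b (-0.24, FDR = 0.00798). No marker of neurons (8 in the table), astrocytes (12), oligodendrocytes (12), endothelial cells and pericytes (13), monocytes (9) or neutrophils (12) passed the FDR. The summed linear signal of the oligodendrocyte markers was 0.00316% to 0.00923% of a library in WT and 0.00329% to 0.00844% in rTg4510, with the highest values in WT replicate 1 and rTg4510 replicate 2. All 12 markers of border macrophages were lower in rTg4510, with a median of -0.26, and 1 of them passed the FDR (Stab1, -0.46, FDR = 0.00983). Their summed signal was 0.0336% to 0.038% of a WT library and 0.0254% to 0.0325% of an rTg4510 library, without overlap. That of the microglia markers was lower without overlap as well, at 0.464% to 0.539% in WT and 0.406% to 0.444% in rTg4510. The part of either fall in the results was not tested. Of the T and NK cell markers 1 of 9 was a DEG, Klrb1c (0.89, SE 0.248, FDR = 0.0352), while 7 lay below 0 and the median was -0.28. In a preparation from many cells, fewer cells of a type and less RNA per cell cannot be told apart.

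None of the 3 mouse genes that correspond to parts of the transgenes was called. Mapt, the mouse tau gene, read 5.54, 4.70, 5.26 and 4.61 in WT replicates 1 to 4 and 4.47, 4.68, 4.70 and 4.32 in rTg4510 replicates 1 to 4. The groups overlapped and the difference of -0.49 (SE 0.419) had an FDR of 0.66. Prnp, the prion protein gene that supplies the tau transgene's regulatory sequence, differed by 0.23 (SE 0.361, FDR = 0.846) and Camk2a by -0.28 (SE 0.155, FDR = 0.395). The tTA transgene is known to sit on chromosome 12, in a stretch that holds Vipr2, Wdr60, Esyt2, Ncapg2 and Ptprn2, and the tau transgene is known to disrupt Fgf14 on chromosome 14. Vipr2, Ptprn2 and Fgf14 are not among the genes analysed here.

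In all, 3 genes of the stretch with the tTA insertion were lower in rTg4510 microglia. Esyt2 (chr12:116279283-116390935, GRCm38), which encodes a tether between the endoplasmic reticulum and the plasma membrane, read 5.96, 5.89, 6.11 and 5.82 in WT and 5.04, 5.04, 5.20 and 4.78 in rTg4510. Every rTg4510 library was below every WT library, and the fall was 0.93 (SE 0.0765, FDR = 4.25e-07), a 1.90-fold lower signal. Wdr60, a subunit of the dynein that works in cilia, fell by 0.73 (SE 0.102, FDR = 0.000128), from 5.08 to 5.38 in WT to 4.41 to 4.69 in rTg4510. Ncapg2, a condensin subunit, fell by 0.63 (SE 0.148, FDR = 0.0106), but without rTg4510 replicate 2 or replicate 3 the fall was 0.56 or 0.57 and under the 1.5-fold limit. With the replicate number as a block in the fit, the FDR of Ncapg2 was 0.0635. D430020J02Rik, a lncRNA between Esyt2 and Ncapg2, did not pass (-0.17, SE 0.302, FDR = 0.871). The mean effect at 4, 6 and 8 months was -0.80 for Esyt2, -0.89 for Wdr60 and -0.63 for Ncapg2, and the difference between 2 months and the later ages did not pass the test in any of them (FDR = 0.416, 0.456 and 0.999). These 3 genes are DEGs in the stretch with a transgene that only the rTg4510 mice carried. The parts of tau and of the insertion in their change were not tested.

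Csf1, the ligand of the CSF1 receptor on which microglia depend, had the largest increase among protein-coding DEGs whose groups did not overlap. Its signal was 5.53, 5.0, 5.25 and 5.30 in WT and 7.37, 6.84, 7.31 and 7.07 in rTg4510. All rTg4510 libraries lay more than 1 log2 unit above all WT libraries, and the rise was 1.88 (SE 0.246, FDR = 7.79e-05) or 3.68-fold. Spp1, which encodes the secreted glycoprotein osteopontin, rose by 1.86 (SE 0.182, FDR = 2.61e-06), from 3.10 to 3.77 in WT to 5.16 to 5.61 in rTg4510. Mif, a cytokine that keeps macrophages from leaving sites of inflammation, was the other DEG among the 23 members of a list of other cytokines and growth factors (those outside the chemokine, interleukin-1 and TNF families; 0.63, SE 0.104, FDR = 0.000523), and it fell to 1.5 fold or less without WT replicate 3, rTg4510 replicate 1 or rTg4510 replicate 3. So 3 of the 23 were up-regulated and 0 down-regulated, with a median change of 0.11, beside 1.58% up-regulated among all genes. Csf1 and Spp1 are counted again among the disease-associated genes.

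**Figure D1:**
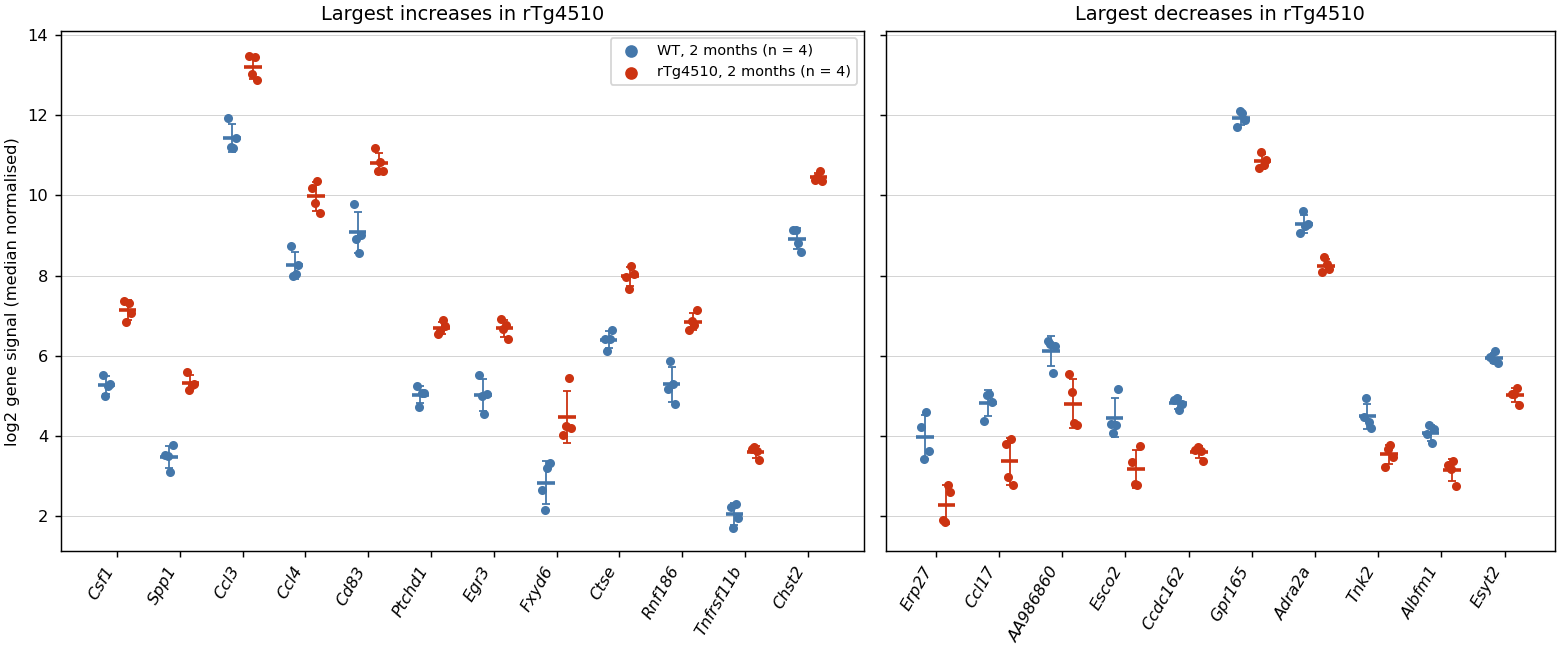
The log2 gene signal of each library for the 12 largest increases (left) and the 10 largest decreases (right) among protein-coding DEGs whose genotypes did not overlap, with WT in blue and rTg4510 in red; horizontal bars are means and vertical bars SDs of 4 libraries. Csf1 rose from a mean of 5.27 to 7.15 and Gpr165 fell from 11.93 to 10.85, while Erp27 and Fxyd6 showed a wide spread near the lower end of the scale.

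Of the CC chemokines, Ccl3, Ccl4 and Ccl6 rose and Ccl17 fell. Ccl3, a ligand of CCR1, had a high signal in both genotypes, with 11.92, 11.20, 11.18 and 11.42 in WT and 13.46, 13.02, 13.45 and 12.88 in rTg4510, and it rose by 1.77 (SE 0.297, FDR = 0.000629). Its neighbour on chromosome 11, Ccl4, read 8.73, 7.99, 8.05 and 8.26 in WT and 10.19, 9.81, 10.35 and 9.56 in rTg4510, a rise of 1.72 (SE 0.316, FDR = 0.00136). In both genes the groups did not overlap, and WT replicate 1 was the highest WT library. Ccl6 rose by 0.83 (SE 0.0808, FDR = 2.29e-06), from 7.42 to 7.61 in WT to 8.23 to 8.61 in rTg4510, and Cxcl16, which exists as a membrane-bound scavenger receptor and as a soluble chemokine, rose by 0.66 (SE 0.142, FDR = 0.00538). Ccl17, a ligand of CCR4, moved the other way, with 4.37, 5.02, 5.06 and 4.86 in WT and 3.80, 2.99, 3.93 and 2.77 in rTg4510. It fell by 1.46 (SE 0.423, FDR = 0.0446), and its FDR rose to between 0.0538 and 0.143 without WT replicate 2, 3 or 4 or rTg4510 replicate 1, 2 or 4. With the replicate number as a block in the fit, the FDR of Ccl17 was 0.111. In all, 4 of 20 chemokines rose and 1 fell, with a median of 0.36, against 1.58% and 0.403% of all genes. Of 16 chemokine receptors 0 were DEGs, a number too small to be read against a background of 1.98%.

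A few members of the interleukin-1 and TNF families were up-regulated, beside 1.58% of all genes. Il1b, an inflammatory cytokine that the inflammasome activates, read 6.46, 6.36, 5.93 and 5.95 in WT and 7.39, 7.24, 6.98 and 7.07 in rTg4510, a rise of 1.0 (SE 0.235, FDR = 0.011), and Il1a, which acts without that processing, rose by 0.89 (SE 0.183, FDR = 0.00372). Il1rl2, the receptor for interleukin-36, rose by 0.62 (SE 0.119, FDR = 0.00212) and fell under the 1.5-fold limit without WT replicate 3 or rTg4510 replicate 1. These were 3 of 14 measured members of the interleukin-1 family, whose median was 0.36. Of 11 TNF superfamily ligands 2 rose, Tnfsf8 (CD30 ligand; 1.16, SE 0.181, FDR = 0.000313) and Tnfsf13b (the B-cell survival factor BAFF; 0.97, SE 0.119, FDR = 4.21e-05), and the list had a median of 0.48. Among 21 TNF superfamily receptors the only DEG was Tnfrsf11b, which encodes osteoprotegerin, a soluble decoy for RANKL and TRAIL. Tnfrsf11b read 2.23, 1.72, 2.31 and 1.96 in WT, within 3 fold of the lowest linear signal of each library, and 3.69, 3.72, 3.64 and 3.40 in rTg4510. The groups did not overlap (FDR = 5.25e-07), and since WT was near the floor the rise can be given only as at least 1.28-fold.

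A group of 3 transcription factors that cells induce within minutes of a stimulus were up-regulated. Egr3 read 5.53, 5.0, 4.54 and 5.04 in WT and 6.91, 6.66, 6.76 and 6.42 in rTg4510, a rise of 1.66 (SE 0.229, FDR = 0.000122). Nr4a1, an orphan nuclear receptor, rose by 1.43 (SE 0.226, FDR = 0.00035), from 6.99 to 7.77 in WT to 8.57 to 9.09 in rTg4510, and Egr2 by 1.14 (SE 0.172, FDR = 0.000255), from 8.88 to 9.41 in WT to 10.23 to 10.48 in rTg4510. In all of them WT replicate 1 was the highest WT library and rTg4510 replicate 1 the highest rTg4510 library. The other 24 of the 27 immediate early genes in the table were not called, among them Jun with -0.09, but 25 of the 27 lay above 0 and the median was 0.36. Among all genes 1.58% were up-regulated. Mean signal over the 27 genes was 9.46, 8.97, 9.0 and 9.08 in WT and 9.99, 9.42, 9.57 and 9.48 in rTg4510, so WT replicate 1 reached the range of the rTg4510 libraries.

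Of 26 NF-κB subunits and feedback genes, 2 were up-regulated (1.58% of all genes). Nfkbid, a nuclear regulator of NF-κB, rose by 0.86 (SE 0.175, FDR = 0.00326), with 5.40, 5.40, 5.10 and 5.15 in WT and 6.50, 6.10, 6.05 and 5.84 in rTg4510. Gadd45b, a stress gene and target of NF-κB, was 1.35 higher (SE 0.368, FDR = 0.0299), and its FDR rose above 0.05 without WT replicate 2 or 3 or rTg4510 replicate 1 or 3, to at most 0.113. The list as a whole had a median of 0.13.

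The BCL2A1 genes, whose products keep myeloid cells from apoptosis, were the only DEGs among 16 members of the BCL2 family. Among all genes 1.58% were up-regulated. Bcl2a1b rose by 1.03 (SE 0.0924, FDR = 9.69e-07), Bcl2a1a by 0.81 (SE 0.102, FDR = 5.03e-05) and Bcl2a1d by 0.68 (SE 0.0834, FDR = 4.16e-05). Bcl2a1b had 10.64, 10.29, 10.36 and 10.48 in WT and 11.62, 11.39, 11.53 and 11.37 in rTg4510, without overlap. The 3 genes are near-identical copies on chromosome 9, and how reads that match several of them were assigned is not given in the sources used here, so the split between them is uncertain. Their likeness can be seen in the promoters that RefSeq annotates on GRCm38.p6. Shown are the 27 bases around the match to TGANTCA, in capitals, which is the same in the 3 copies. TGANTCA is a palindrome apart from its central base. It allows any base there and is thus a loose form of the AP-1 motif, which FOS and JUN proteins bind.

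Bcl2a1a: acttttaaacTGAATCAgaagaggaag
Bcl2a1b: acttttaaacTGAATCAgaagaggaag
Bcl2a1d: acttttaaacTGAATCAgaagaggaag

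The match begins 120, 164 and 114 bases before the annotated start of Bcl2a1a (chr9:88956790-88956816, plus strand), Bcl2a1b (chr9:89199099-89199125, plus strand) and Bcl2a1d (chr9:88731948-88731974, minus strand). Promoters of 300 bases were at hand for 110 of the 150 protein-coding genes that were up-regulated and for 11108 of the 13847 protein-coding genes in the table. On either strand, TGANTCA was in 14 of the 110 (12.7%) and in 6.41% of the 11108. Bcl2a1a, Bcl2a1b and Bcl2a1d are all among the 14, and as near-identical copies they are not separate observations. For TGACGTCA, the cAMP response element, the shares were 3.64% and 3.37%. Of the 37 down-regulated genes with a promoter, 8.11% held TGANTCA. The windows that follow are from other genes named in the text and are given because they hold TGANTCA. A match is a description of the sequence only.

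Il1a: cagagaagccTGACTCAgacttaagtc
Itgax: ccacctcctcTGAGTCAcgctgacaac
C3ar1: gtttaagaggTGACTCAtggaaaggcc
Cst7: ctggttaaaaTGATTCAgcaagaaacc
Tnfsf13b: ttgtctggagTGAGTCAgtctgaaccc

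The windows are chr2:129309968-129309994 (Il1a, minus), chr7:128129484-128129510 (Itgax, plus), chr6:122856163-122856189 (C3ar1, minus), chr2:150570399-150570425 (Cst7, plus) and chr8:10006496-10006522 (Tnfsf13b, plus).

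Genes of the disease-associated state were partly raised at 2 months. Of 50 such genes measured, 18 were up-regulated (1.58% of all genes) and 0 down-regulated, 24 were higher at the FDR (4.76% of all genes), 49 lay above 0 and the median was 0.44. With Gpnmb, which was near the floor in WT, at its bound, the median was 0.41. Lpl, lipoprotein lipase, read 6.45, 6.18, 6.39 and 6.40 in WT and 7.87, 7.69, 8.19 and 7.78 in rTg4510, a rise of 1.53 (SE 0.148, FDR = 2.29e-06). Cd83, a membrane protein of activated antigen-presenting cells, rose by 1.72 (SE 0.26, FDR = 0.000258), from 8.57 to 9.79 in WT to 10.60 to 11.17 in rTg4510. Cst7, an inhibitor of cathepsins, had 4.49, 4.04, 4.25 and 3.76 in WT and 5.12, 5.60, 5.78 and 5.29 in rTg4510 and rose by 1.32 (SE 0.206, FDR = 0.000318). Itgax, the integrin CD11c, was among the tightest of the named genes, with 4.47 to 4.63 in WT and 5.62 to 5.79 in rTg4510, and it rose by 1.2 (SE 0.0949, FDR = 2.8e-07). Some members best known for this state did not pass the test. Chosen after their values were seen, Trem2 differed by 0.00 (SE 0.0708, FDR = 0.994), Igf1 by -0.10 (SE 0.219, FDR = 0.902), Clec7a by 0.54 (SE 0.213, FDR = 0.184) and Gpnmb had an FDR of 0.126. In Clec7a and Gpnmb every rTg4510 library was above every WT library.

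**Figure D2:**
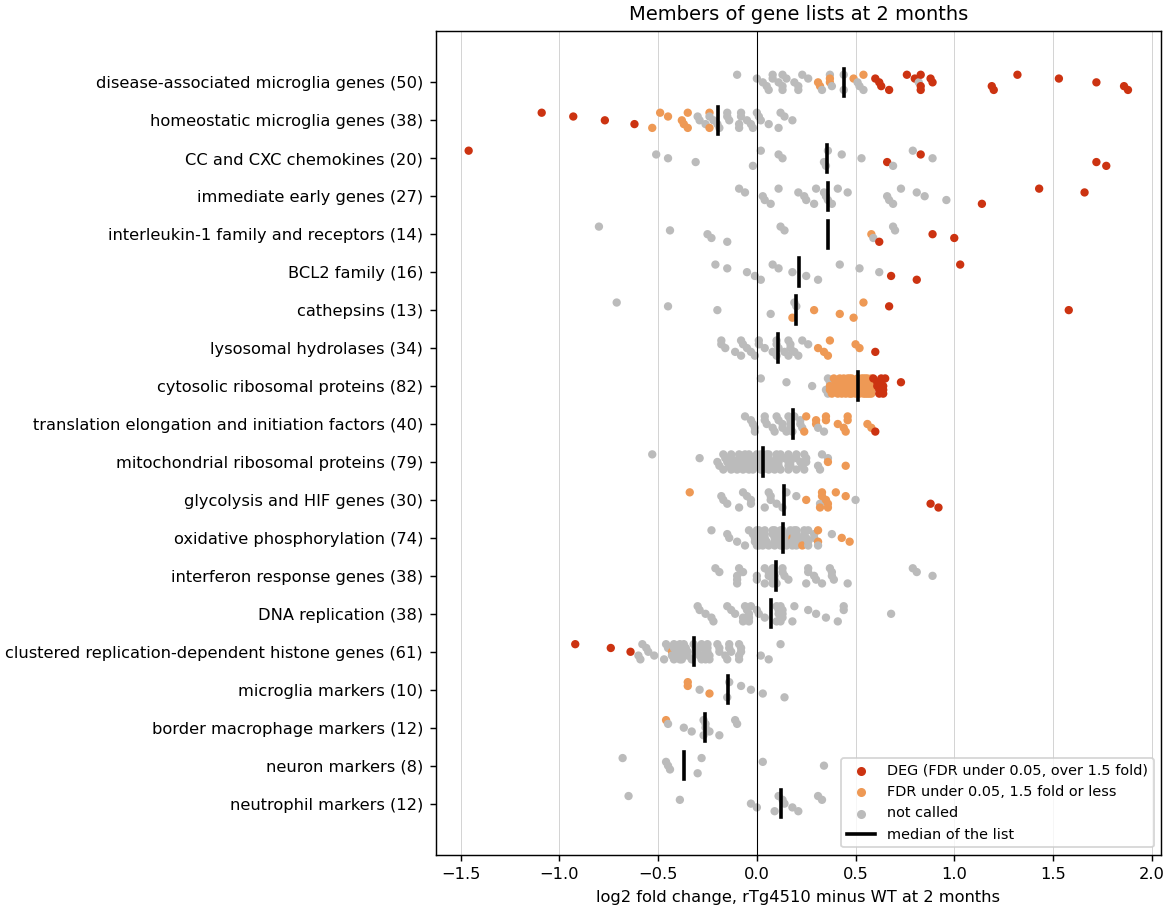
Each point is the log2 fold change of 1 gene (rTg4510 minus WT at 2 months), arranged by gene list with the number of genes in the table in brackets; red points are DEGs, orange points passed the FDR at 1.5 fold or less, grey points were not called and black bars are medians. The 82 cytosolic ribosomal proteins lay in a narrow band above 0 with a median of 0.51, and disease-associated genes were spread from -0.10 to 1.88.

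In a list of 26 genes of lipoproteins and sterol efflux, 4 were up-regulated (1.58% of all genes). Apoe, the main lipid carrier of the brain, had 9.91, 9.82, 9.87 and 10.05 in WT and 10.69, 10.45, 10.59 and 10.34 in rTg4510. The groups did not overlap and the rise was 0.60 (SE 0.133, FDR = 0.00646), which was just over the 1.5-fold limit and under it without WT replicate 2, rTg4510 replicate 1 or rTg4510 replicate 3. Apoc1 was 0.83 higher (SE 0.231, FDR = 0.0332) and its FDR reached up to 0.123 when a library was left out, namely WT replicate 2 or 3 or rTg4510 replicate 1, 2 or 3. With Lpl and Npc2 (0.60, SE 0.0758, FDR = 4.9e-05), which exports cholesterol from lysosomes and fell under the 1.5-fold limit without WT replicate 2 or rTg4510 replicate 3, they were the 4 DEGs among 26 genes of lipoproteins and sterol efflux (median 0.05).

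Cathepsins, the proteases of lysosomes and endosomes, were higher in 10 of 13 cases. Among all genes 1.58% were up-regulated and 4.76% were higher at the FDR. Ctse, an aspartic protease of endosomes, read 6.42, 6.12, 6.42 and 6.64 in WT and 7.96, 7.67, 8.25 and 8.04 in rTg4510, a rise of 1.58 (SE 0.137, FDR = 6.34e-07), and Ctsl rose by 0.67 (SE 0.0734, FDR = 1.01e-05). Another 5 passed the FDR at smaller changes, between 0.18 (Ctsa) and 0.54 (Ctsz), and the list had a median of 0.20. In a list of 34 lysosomal hydrolases and related proteins 1 was a DEG and 7 passed the FDR, with a median of 0.10. The DEG was Npc2, which is not a hydrolase and was counted above with the lipoprotein genes. Cd63, a tetraspanin of late endosomes, rose by 0.63 (SE 0.0765, FDR = 3.81e-05), with 6.37 to 6.48 in WT and 7.0 to 7.12 in rTg4510, and Cd9 by 0.76 (SE 0.0997, FDR = 8.06e-05). The processed pseudogene Cd63-ps moved with Cd63 (0.71, SE 0.0658, FDR = 1.76e-06) and may share its reads. Tspan9 fell by 0.77 (SE 0.126, FDR = 0.000503), from 5.28 to 5.45 in WT to 4.28 to 4.87 in rTg4510.

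Receptors and adhesion molecules were mixed, and among all genes 1.58% were up-regulated and 0.403% down-regulated. C3ar1, the receptor of the complement fragment C3a, rose by 0.63 (SE 0.0846, FDR = 0.000105) and with Itgax made up the 2 DEGs among 23 complement genes (median -0.01). Siglecf and Cd22, inhibitory receptors for sialic acids, rose by 0.93 (SE 0.142, FDR = 0.000273) and 0.88 (SE 0.176, FDR = 0.00272), 2 of 24 genes in their list. Itgae, the integrin CD103, fell by 0.67 (SE 0.16, FDR = 0.0126), and its FDR was 0.0583 without WT replicate 2. H2-DMa, a chaperone that loads peptides on MHC class II, read 6.88, 7.18, 7.21 and 7.34 in WT and 7.81, 7.77, 8.05 and 7.79 in rTg4510, a rise of 0.70 (SE 0.108, FDR = 0.000301), and it was the only DEG among 11 class II genes (median 0.03). None of 26 Toll-like receptors and adaptors was a DEG, but Tlr1 (0.57) and Cd14 (0.54) were higher and Ly96 (-0.40), Tlr3 (-0.37), Tlr7 (-0.34) and Tlr13 (-0.32) lower at an FDR between 0.00097 and 0.049.

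Other increases fell into no list or into lists with few DEGs. Among all genes 1.58% were up-regulated, and 4.76% were higher and 1.27% lower at the FDR. Ptchd1, a membrane protein related to the Hedgehog receptor Patched, read 5.25, 4.73, 5.08 and 5.07 in WT and 6.54, 6.63, 6.89 and 6.74 in rTg4510, a rise of 1.67 (SE 0.16, FDR = 2.28e-06). Chst2, which adds sulphate to the N-acetylglucosamine of glycans, rose by 1.53 (SE 0.151, FDR = 2.86e-06), from 8.59 to 9.14 in WT to 10.35 to 10.60 in rTg4510, and Rnf186, an E3 ubiquitin ligase, by 1.56 (SE 0.212, FDR = 0.000111). In Fxyd6, a modulator of the sodium pump, rTg4510 replicate 3 stood apart at 5.44 from 4.04 to 4.24 in the other rTg4510 libraries. The rise of 1.64 (SE 0.387, FDR = 0.0107) became 1.32 (FDR = 0.0531) without it and 1.42 (FDR = 0.0507) without WT replicate 2. Pfkfb3 (0.88, SE 0.186, FDR = 0.00453), which makes the activator of phosphofructokinase, and Egln3, an oxygen sensor that read 2.13 to 2.85 in WT and 2.96 to 3.77 in rTg4510 and rose at least 1.10-fold, were the DEGs among 30 genes of glycolysis and HIF signalling. Egln3 lost its call with only the 8 libraries of 2 months (FDR = 0.08), with all 32 libraries (FDR = 0.133) and, on fold, with 8 added to the linear signal. It was also lost with the replicate number as a block in the fit (FDR = 0.0513). Another 9 of the list were higher and 1 lower at the FDR alone, with Gapdh at 0.45, and the list had a median of 0.14. Hspe1, a mitochondrial chaperonin (0.60, SE 0.078), and Gsto1, a glutathione transferase (0.74, SE 0.179), were the single DEGs of 26 heat shock chaperones and 32 antioxidant genes. Single DEGs are too few to be read against the share among all genes. Hspe1 fell under the 1.5-fold limit without WT replicate 3 or rTg4510 replicate 3, and Gsto1 reached an FDR of up to 0.0603 without WT replicate 3 or rTg4510 replicate 1. With the replicate number as a block in the fit, the FDR of Gsto1 was 0.0527.

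Homeostatic genes were lower by small amounts. Of 38 genes 4 were down-regulated (0.403% of all genes) and 0 up-regulated, and 13 were lower at the FDR (1.27% of all genes). In the list 31 lay below 0 and the median was -0.19. Gpr165, an orphan receptor, read 11.70, 12.09, 12.06 and 11.88 in WT and 10.67, 11.09, 10.75 and 10.88 in rTg4510 and fell by 1.09 (SE 0.148, FDR = 0.000114), the largest fall of the list. Upk1b, a tetraspanin, fell by 0.93 (SE 0.16, FDR = 0.000834), Ecscr by 0.77 (SE 0.105, FDR = 0.000114) and Fcrls by 0.62 (SE 0.0947, FDR = 0.000286), and each had no overlap between the genotypes. Without rTg4510 replicate 1, Fcrls fell by 0.55 and was under the 1.5-fold limit. P2ry13 (-0.49) and Gpr34 (-0.45), which sense nucleotides and lipids, passed the FDR only, and P2ry12 did not (-0.14, SE 0.0954, FDR = 0.538).

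**Figure D3:**
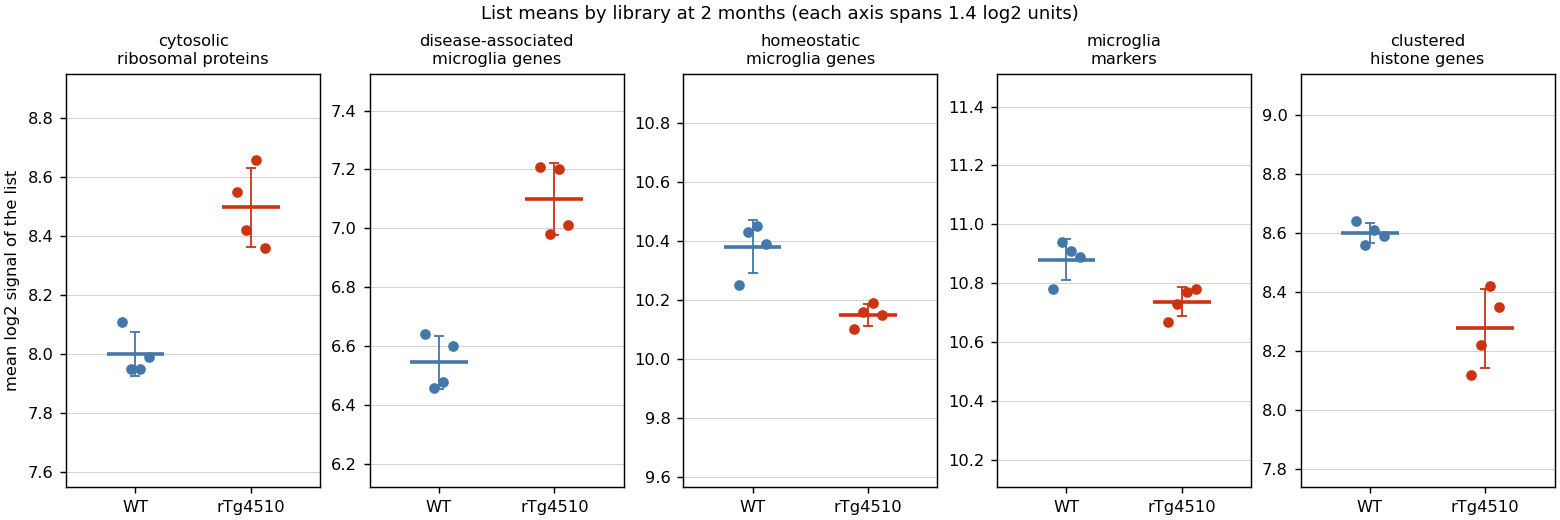
Mean log2 signal over the genes of 5 lists in each library at 2 months (WT blue, rTg4510 red), with horizontal bars at the group means and vertical bars for the SD of 4 libraries; every axis spans 1.4 log2 units. Ribosomal proteins ran from 7.95 to 8.11 in WT and from 8.36 to 8.66 in rTg4510, and microglia markers met between the genotypes at 10.78.

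Several of the largest decreases were at low signal. Adra2a, the adrenergic receptor α2A, was an exception, with 9.07, 9.60, 9.23 and 9.28 in WT and 8.08, 8.46, 8.29 and 8.17 in rTg4510, a fall of 1.05 (SE 0.199, FDR = 0.00189). Ccdc162 fell by 1.23 (SE 0.179, FDR = 0.000199), from 4.64 to 4.96 in WT to 3.39 to 3.73 in rTg4510, and Tnk2, a tyrosine kinase, by 0.95 (SE 0.218, FDR = 0.00881). Erp27, a chaperone of the endoplasmic reticulum, read 4.23, 3.43, 4.61 and 3.62 in WT and 1.92, 1.85, 2.79 and 2.62 in rTg4510. Since rTg4510 was near the floor it was at least 1.74-fold lower, and its FDR of 0.0154 rose above 0.05, to at most 0.0664, without WT replicate 3 or rTg4510 replicate 1 or 2. AA986860 (-1.32, FDR = 0.0424) and Esco2 (-1.28, FDR = 0.0324), an acetyltransferase of cohesin, lost their calls in most fits that left out a library: AA986860 without WT replicate 1, 2 or 4 or rTg4510 replicate 2, 3 or 4 (FDR up to 0.14), and Esco2 without WT replicate 3 or 4 or rTg4510 replicate 1, 2 or 3 (FDR up to 0.126). Albfm1 (-0.93, FDR = 0.015) lost its call without WT replicate 2 or rTg4510 replicate 4 (FDR up to 0.0621).

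The cytosolic ribosomal proteins rose as a body. All 82 in the table lay above 0, 75 passed the FDR, 76 did not overlap between the genotypes and the median was 0.51, while 12 passed the 1.5-fold limit as well. Among all genes, 4.76% were higher at the FDR, 7.49% were higher without overlap and 1.58% were up-regulated DEGs. Rpl32 read 9.35, 9.28, 9.27 and 9.32 in WT and 10.12, 9.91, 10.30 and 9.83 in rTg4510, a rise of 0.73 (SE 0.108, FDR = 0.00021) and the largest of the list. Rps4x rose by 0.65 (SE 0.0887, FDR = 0.00012) and Rps26 by 0.64 (SE 0.1, FDR = 0.000314). Since the changes crowd at the 1.5-fold limit, the number of DEGs among them depended on single libraries and was 25 without WT replicate 1, 23 without rTg4510 replicate 2, 33 without rTg4510 replicate 4 and 5 without rTg4510 replicate 3, whereas between 64 and 77 passed the FDR in the fits that left out a library, 50 when only the 8 libraries of 2 months were fitted and 28 with all 32 libraries. Under quantile normalization the median was 0.44, with 71 at the FDR and 5 DEGs.

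In each library the ribosomal protein genes took 0.407%, 0.348%, 0.358% and 0.368% of the linear signal in WT and 0.54%, 0.49%, 0.586% and 0.444% in rTg4510, without overlap. Of 193 pseudogenes named for a ribosomal protein 37 were up-regulated and 0 down-regulated, and they may share reads with their parent genes, so they are no separate observation. Pseudogenes overall made up 130 of the 368 DEGs (4.6% of 2828), against 196 protein-coding genes (1.42% of 13847). Of 40 translation factors, a list that was added after the values were seen, 1 was a DEG (Eef1a1, 0.60, SE 0.0891, FDR = 0.000232) and 14 passed the FDR, all of them higher, with a median of 0.19. The 79 mitochondrial ribosomal proteins, also added later, had 0 DEGs, 2 at the FDR and a median of 0.03, and of 74 oxidative phosphorylation genes 0 were DEGs and 6 passed the FDR (median 0.13). Transcripts of ribosomal proteins are known to begin with a terminal oligopyrimidine tract, which ties their translation to mTOR. A C followed by at least 4 pyrimidines, starting within 5 bases of an annotated start, was present in 30 of 61 ribosomal protein genes with a promoter (49.2%) and in 23.5% of the 11108 protein-coding genes. The tract, in capitals, is shown for the DEGs that have it, from 5 bases before the start to 20 after.

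Rpl39: gCCTCTagcgacttcttctaatcgc
Rps9: CTCTCTTTgtctcgggcctgagttc
Rps10: cgCCCCTTCCTTTCCagcctccgcc
Rps26: ccgccggatCCTCTTTCgagtcttg

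These windows lie at chrX:37085203-37085227 (Rpl39, minus), chr7:3704036-3704060 (Rps9, plus), chr17:27635225-27635249 (Rps10, minus) and chr10:128626487-128626511 (Rps26, minus) of GRCm38.p6.

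Other programs of microglial activation showed no DEG. None of 38 interferon response genes passed the DEG rule or the FDR (limma, smallest FDR = 0.068; 29 above 0, median 0.10), and of 19 genes of MHC class I presentation none passed either (smallest FDR = 0.0745, median 0.11). At an unadjusted p under 0.05, 4 interferon response genes were higher and 1 lower, and 4 and 0 genes of class I presentation. The 38 DNA replication genes (median 0.07) and the 38 mitosis genes (median -0.17) held 0 DEGs, and in the latter 1 gene passed the FDR, Ncaph (-0.55, FDR = 0.00097). Of the mitosis genes, which had a low signal (median WT level 3.92), 29 lay below 0. At an unadjusted p under 0.05, 10 of them were lower and 0 higher, against 1 lower and 4 higher in DNA replication. Among all genes 16.5% had an unadjusted limma p under 0.05. The 21 circadian clock genes, the 23 genes of the integrated stress response and the 20 purinergic receptors and ectonucleotidases held 0 DEGs as well, with medians between -0.08 and 0.06. A value that missed the threshold with 4 libraries a genotype does not show that the genotypes were alike.

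Clustered histone genes, a list added after the values were seen, lay below 0 in 58 of 61 cases. The median was -0.32, and 3 were down-regulated (0.403% of all genes). H2bc11 read 8.00, 8.33, 8.18 and 8.16 in WT and 7.07, 7.56, 7.41 and 6.95 in rTg4510, a fall of 0.92 (SE 0.216, FDR = 0.0103), and H2bc23 and H2bc12 fell by 0.74 and 0.64 (FDR = 0.0283 and 0.0252). Only 1 of them was called without WT replicate 2 or without rTg4510 replicate 1. These genes are near-identical copies whose messages lack a poly(A) tail, and reads may be shared between them. Across the list, the summed share of the linear signal was 1.18% to 1.29% in WT and 0.808% to 1.15% in rTg4510.

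Position in the genome set some DEGs together. Within 5 Mb of the start of Esyt2 on chromosome 12, 6 of 70 genes were DEGs (8.57%, against 1.98% of all genes). This window was centred on a DEG and includes the called genes at the insertion. Without Esyt2, Wdr60 and Ncapg2 it held 3 DEGs among 67 genes (4.48%), all of them higher. These 3 were Adssl1 (1.05) and 2 joining segments of the immunoglobulin heavy chain, which belong to 1 locus. Ighj1 (chr12:113429781-113429833), a segment of 53 bases, had 7.12, 7.29, 7.11 and 7.34 in WT and 9.14, 8.93, 9.12 and 9.23 in rTg4510, the smallest FDR of the comparison's named genes (1.89, SE 0.106, FDR = 1.73e-09). Ighj3 rose by 1.64 (SE 0.288, FDR = 0.000919), with 3.91 to 4.97 in WT and 5.55 to 6.29 in rTg4510. The other J segments did not pass, with Ighj2 at 0.09 (FDR = 0.898) and Ighj4 at 0.35 (FDR = 0.109), and the constant region Ighm rose by 0.42 (FDR = 0.00251) below the 1.5-fold limit, while Ighd (-0.50, FDR = 0.0419) and Ighg2b (-0.46, FDR = 0.00211) were lower. Of the B-cell markers, 0 of 9 were DEGs and their summed share of the linear signal was 0.104% to 0.113% in WT and 0.114% to 0.132% in rTg4510, without overlap, a sum that includes Ighm. The cause of the rise in single J segments was not tested, and the strand of the reads is not given in the sources used here.

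The first 8 Mb of chromosome 14 held the largest group of neighbouring DEGs, noticed after the values were seen. There 25 of 102 genes were DEGs (24.5%), all of them lower, 53 passed the FDR and 96 lay below 0, with a median of -0.50, against 9 of 631 (1.43%) on the rest of the chromosome. Most are pseudogenes and predicted genes of multi-copy families (17 pseudogenes among the 25), which share reads, so they count as fewer independent observations than their number. The lncRNA 4933406F09Rik read 8.86, 9.34, 8.98 and 9.01 in WT and 8.03, 8.22, 7.97 and 7.85 in rTg4510, a fall of 1.03 (SE 0.174, FDR = 0.000686). Without WT replicate 2 or rTg4510 replicate 3 the stretch held 16 DEGs. At the later ages the median of the stretch was -0.98.

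**Figure D4:**
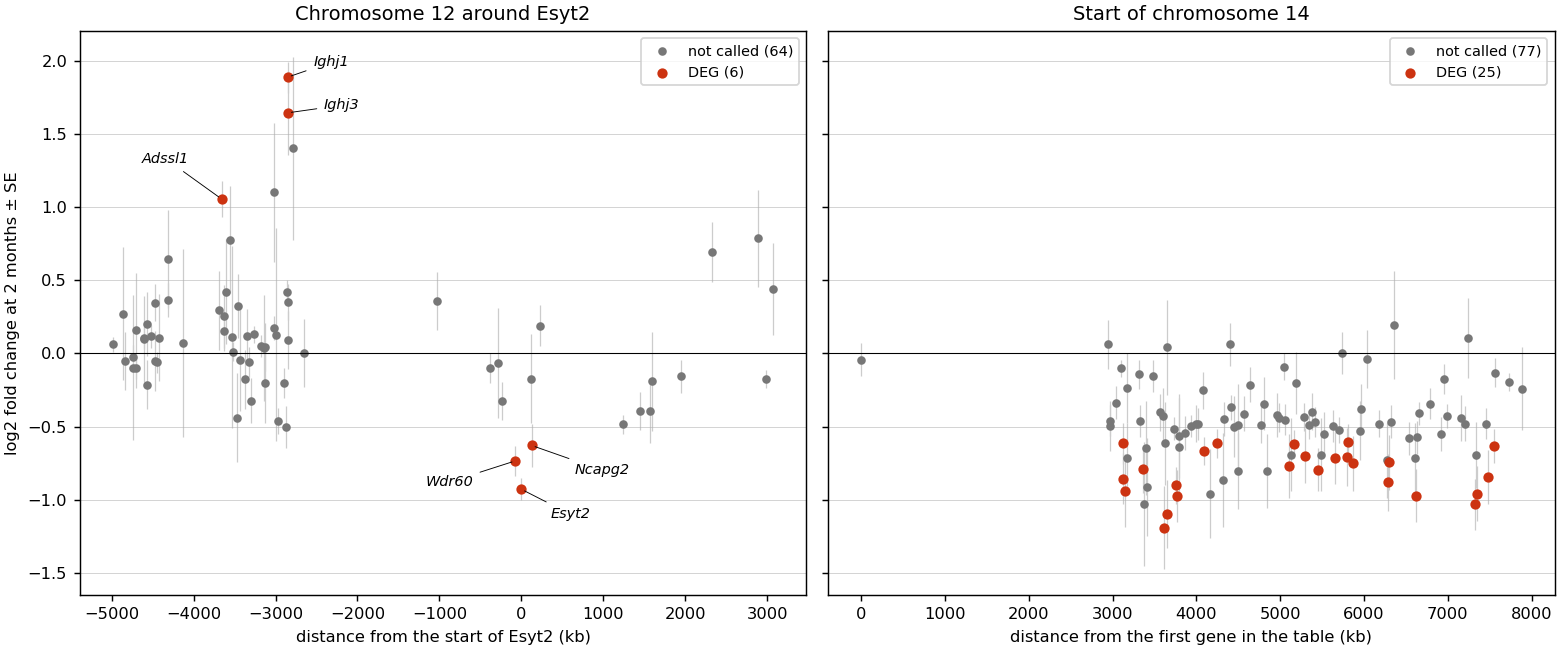
Log2 fold change at 2 months with its SE for genes on chromosome 12, by distance from the start of Esyt2 (left), and on the first 8 Mb of chromosome 14, by distance from the first gene in the table (right); red points are DEGs. Esyt2, Wdr60 and Ncapg2 lay below 0 beside uncalled neighbours, Ighj1 and Ighj3 above, and the 25 DEGs of chromosome 14 were all below 0.

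The effect at 2 months was tested against the mean effect at 4, 6 and 8 months in the same fit. This difference passed the DEG rule in 1520 genes (8.18%), with 1051 effects lower (5.65%) and 469 higher (2.52%) at 2 months. Of the 368 DEGs, 177 had a later effect that was larger in the same direction, 5 had one that was smaller or opposite and 186 did not pass. The DEGs were chosen on the effect at 2 months, which enters the difference. The median change of the up-regulated DEGs was 0.71 at 2 months and 1.32 later, and that of the down-regulated DEGs was -0.77 and -1.19.

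Many genes of the disease-associated state changed far less at 2 months than later. Among named DEGs with a smaller effect at 2 months, Itgax had a change of 1.2 at 2 months and 3.85, 3.43 and 3.19 at 4, 6 and 8 months (difference -2.29, SE 0.113, FDR = 2.51e-11). Apoe changed by 0.60 and then by 2.94, 3.60 and 3.41 (difference -2.72, SE 0.158, FDR = 4.06e-10), and Cst7 by 1.32 and then by 5.77, 4.88 and 4.59 (difference -3.77, SE 0.244, FDR = 1.46e-09). Of the 50 disease-associated genes 49 had a difference that was called, all of them lower at 2 months, and the list's median was 0.44 at 2 months and 2.30 later. In the ribosomal proteins it was 0.51 and 1.16, with 60 of 82 called.

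In other genes the difference between 2 months and the later ages did not pass the test. Egr2 changed by 1.14 at 2 months and by 1.13 on average later (difference 0.00, SE 0.204, FDR = 0.995). Il1a changed by 0.89 and 0.79 (difference SE 0.217, FDR = 0.839), Nfkbid by 0.86 and 0.86 (SE 0.208, FDR = 0.995), Tnfsf13b by 0.97 and 0.87 (SE 0.142, FDR = 0.733) and Pfkfb3 by 0.88 and 0.95 (SE 0.221, FDR = 0.895). Egr3 was 1.66 higher at 2 months and 1.12 higher later (FDR = 0.216). Ccl3 and Ccl4, with 1.77 and 1.72 at 2 months and 2.45 and 2.36 later, did not pass either (FDR = 0.231 and 0.3). Of the 27 immediate early genes 1 had a difference that was called.

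**Figure D5:**
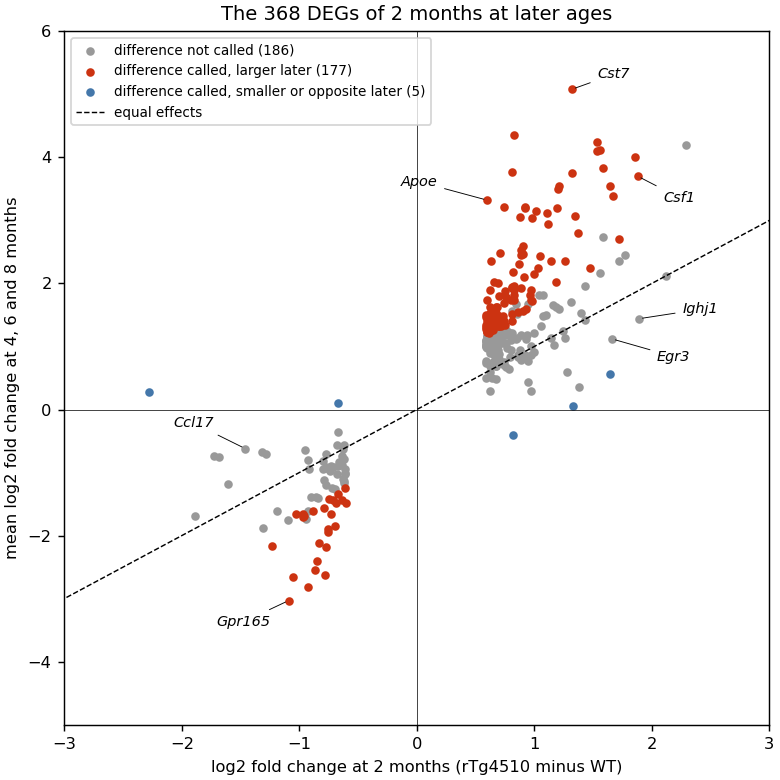
The log2 fold change of the 368 DEGs at 2 months (horizontal axis) and the mean of their log2 fold changes at 4, 6 and 8 months (vertical axis); points on the dashed line had equal effects, red points (177) had a larger later effect and blue points (5) a smaller or opposite one by the test of the difference, and 186 grey points did not pass it. Cst7 and Apoe lay far above the line and Egr3 and Ighj1 below it.

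A few DEGs had a larger effect at 2 months. Gm16505, a pseudogene, read 1.91, 3.17, 2.83 and 2.75 in WT and 3.66, 3.93, 4.18 and 4.20 in rTg4510. The value of WT replicate 1 was the lowest of that library. The rise was 1.33 (SE 0.297, FDR = 0.00681) at 2 months and 0.05 on average later (difference FDR = 0.0155). Ighj1 rose by 1.89 at 2 months and by 1.37, 1.46 and 1.48 later (difference 0.45, SE 0.125, FDR = 0.0173 at under 1.5 fold, and 0.0502 without rTg4510 replicate 4). Zfp709, a zinc finger gene, fell by 0.67 (FDR = 0.00971, with a change of 1.5 fold or less without WT replicate 2) and was 0.11 higher later (difference FDR = 0.00522). Mir3971 (0.82, FDR = 0.0324) overlapped between the genotypes and lost its call without WT replicate 1, 3 or 4 or rTg4510 replicate 1, 2 or 4 (FDR up to 0.131). With the replicate number as a block in the fit, the FDR of Mir3971 was 0.0594. The lncRNA 5430400D12Rik fell by 2.28 (SE 0.663, FDR = 0.045), from 4.03 to 5.33 in WT to 1.38 to 3.75 in rTg4510, and lost its call without WT replicate 1, 2 or 4 or rTg4510 replicate 1, 3 or 4 (FDR up to 0.163).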

How the data were processed

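RNA from CD11b-positive forebrain cells had been sequenced after cDNA synthesis with an amplification kit. The deposited values are log2 gene signals. Per the paper's methods, the authors summed exon reads over runs, dropped exons with low counts in most samples, derived 1 signal per gene from its exons by robust linear modelling and normalized to the median, so that each library here has a median of 5.63. The labels name the build GRCm38. The aligner, the strand and the handling of reads that match several genes are not given in the sources used here. No read totals are in the file, so depth is unknown, no counting interval was computed and 0 columns of values were left unused. Where all libraries of a genotype were at most 3 fold above their own minimum on the linear scale, they were called near the floor. The fold change was then given as a bound, measured from that limit.

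Computed here, with limma 3.58.1 in R 4.3.3, were a linear model per gene with 8 group means over 28 libraries and unmoderated variances (20 residual degrees of freedom), the contrast of genotypes at 2 months, and its difference from the mean contrast at 4, 6 and 8 months. The 4 libraries that had failed the study's RNA-seq QC were left out: replicate 3 of both genotypes at 4 months and replicate 4 of both at 8 months. No gene was filtered. Every FDR is a limma p adjusted by Benjamini-Hochberg over 18588 genes. The fit was tested on simulated data. Alternatives were moderated variances, only the 8 libraries of 2 months, all 32 libraries, quantile normalization, centring on the upper part of the genes, 8 added to the linear signal, a filter on the lowest 25% of genes, a replicate block and leaving out each library. Per the paper's methods, the libraries of a group are biological replicates from pooled animals. The precision is set by 4 libraries a genotype, and the median SE was 0.164 over all genes and 0.14 over the DEGs.

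Named were the 12 largest increases and 10 largest decreases among protein-coding DEGs without overlap, the genes of the transgenes and their insertion sites, up to 4 DEGs a gene list and 5 DEGs each with the smallest FDR for a smaller and a larger effect at 2 months. A few results that the rule names are not reported here. Other genes were named after their values were seen. The comparison and the gene lists were chosen with earlier results of these data known. Gene types, positions and promoters came from RefSeq on GRCm38.p6, where 95.9% of Entrez numbers matched. Python 3.11.15, pandas 2.3.3 and matplotlib 3.10.9 were used for summaries and figures.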

Additional observations from a re-analysis of the deposited data

Results flagged for a closer look

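The effect at 2 months differed from the mean effect at 4, 6 and 8 months, by the limma test of the difference at an FDR under 0.05 and whatever its size, in 46 of the named genes. The differences below are on the log2 scale, as 2 months minus later. In the following 34 genes that rose at 2 months, the later rise was larger. Among cytokines, chemokines and cell surface genes these were Csf1 (-1.82), Spp1 (-2.14), Ccl6 (-0.91), Il1b (-1.15), Mif (-0.70), Cxcl16 (-1.37), Tnfrsf11b (-2.56), Cd83 (-0.98), Cd22 (-2.17), Siglecf (-0.66), Itgax (-2.29), C3ar1 (-0.83), Ptchd1 (-1.73), Cd9 (-1.03) and Fxyd6 (-1.90). Among genes of lipids and lysosomes they were Lpl (-2.71), Apoe (-2.72), Apoc1 (-3.53), Npc2 (-0.81), Ctse (-2.25), Ctsl (-0.94), Cst7 (-3.77), Cd63 (-1.72) and Cd63-ps (-1.78). The others were Chst2 (-2.57), Gadd45b (-1.72), Bcl2a1b (-1.22), Bcl2a1a (-1.11), Bcl2a1d (-0.77), Hspe1 (-0.38), Egln3 (-2.26), Rpl32 (-0.75), Rps4x (-0.55) and Rps26 (-0.72). In 6 genes that fell, the later fall was larger: Ccdc162 (0.95), Gpr165 (1.95), Adra2a (1.61), Upk1b (1.88), Ecscr (1.41) and Itgae (0.68). The effect at 2 months was larger, or opposite to the later one, in Ighj1 (0.45), Ighj3 (1.07), Mir3971 (1.23), Gm16505 (1.28), Zfp709 (-0.78) and 5430400D12Rik (-2.55). The difference lost its FDR in 5 fits that left out a library for Cd83 (without WT replicate 1 or 4 or rTg4510 replicate 2, 3 or 4; largest FDR 0.104), in 6 for Ighj3 (without WT replicate 1, 2 or 3 or rTg4510 replicate 1, 2 or 4; 0.103) and in 6 for 5430400D12Rik (without WT replicate 1, 2 or 4 or rTg4510 replicate 1, 3 or 4; 0.0816).

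In 6 groups of 4 libraries, 1 library stood far from the others by Dixon's test, which chance gives in about 1 of 20 groups. These were rTg4510 replicate 3 in Fxyd6 (5.44) and H2-DMa (8.05), WT replicate 1 in Ncapg2 (3.74) and Bcl2a1d (10.39), WT replicate 3 in AA986860 (5.58) and WT replicate 4 in Wdr60 (5.08).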

How the results depend on the processing

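With all 32 libraries, including the 4 that had failed QC, there were 165 DEGs (135 higher, 30 lower), and 930 genes differed from the later ages (679 lower, 251 higher). The limma FDR alone gave 586 genes with only the 8 libraries of 2 months and 314 with all 32. Leaving out each library gave 280 to 477 DEGs (218 to 388 higher, 48 to 89 lower) and 1324 to 1628 differences from later ages (943 to 1107 lower, 381 to 521 higher). No DEG changed direction, 188 were called in every fit that left out a library and 91 in all fits in which they were tested. Of the 71 named genes that were called, 51 were called in every fit that left out a library and 30 in all alternatives in which they were tested. Of these 71, 35 lost the call with all 32 libraries, 12 with 8 added to the linear signal and 8 with only the 8 libraries of 2 months. Quantile normalization ended the DEG call of Bcl2a1d, C3ar1, Ctsl, Npc2, Apoe, Apoc1, Hspe1, Rps4x, Rps26 and Cd63-ps. Without read totals, counting error at low signal could not be set apart from other spread.

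Deviations from the group means correlated positively between libraries of the same replicate number (r = 0.135, 0.125, 0.0649 and 0.167). The labels do not say what the numbers stand for. The main fit did not pair the libraries, so a batch shared by number was not accounted for in it. With the replicate block there were 376 DEGs (294 higher, 82 lower), of which 328 were shared with the fit without it, and 7 of 8 libraries correlated best with the library of their own number. The block ended the calls of Ccl17 (FDR = 0.111), Ncapg2 (0.0635), Egln3 (0.0513), Gsto1 (0.0527) and Mir3971 (0.0594), and of no other named gene.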

Other observations

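The following DEGs were chosen after their values were seen. Pdcd1, the inhibitory receptor PD-1, rose by 1.47 (FDR = 2.2e-05), Plaur, the urokinase receptor, by 1.37, and Cd34 by 1.18 (FDR = 1.51e-08) in limma. Klrb1a (1.11, FDR = 1.63e-05) and Klrb1b (0.87, FDR = 0.0392), lectin receptors from the same gene cluster as Klrb1c, were higher as well. In the disease-associated list, Axl, a receptor for apoptotic cells, rose by 1.19 (FDR = 7.79e-05), and Fth1, a subunit of the iron store ferritin, by 0.80 (FDR = 0.000122).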
